A study of Mus musculus with 4 samples.

Results

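The 7 genes Hspd1, Hspe1, Hspa9, Trap1, Lonp1, Clpp and Clpx encode the main chaperones and proteases of the mitochondrial matrix, and their transcripts were followed in mouse fibroblasts after a near-lethal pulse of hydrogen peroxide. Probes were assigned to them by gene name alone, and 9 of the 39429 probes on the array carry one of these names (7 of 30175 gene names). Each gene had 1 probe except Hspe1, which had 3. NIH-3T3:Per2-Luc cells are a line of mouse embryonic fibroblasts that carry a luciferase reporter under the Per2 promoter, and all 4 samples came from this reporter line. One sample was the control (0 mM H2O2, medium exchanged for fresh medium, 4 h), and the other 3 received critical oxidative stress (cOS-pulse, 5 mM H2O2 for 10 min) with total RNA taken 4 h, 20 h and 32 h later. There was 1 array per group, so no value has a replicate error and no test between groups exists. The control was sampled at 4 h alone, so at 20 h and 32 h an effect of the pulse and of time in culture cannot be told apart.

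Proteins enter mitochondria unfolded, through pores of the outer and inner membrane. Inside, the HSP70 of the matrix, encoded by Hspa9, pulls the chain in and hands it to the chaperonin, a barrel of HSP60 (Hspd1) closed by a lid of HSP10 (Hspe1), where it folds. Chains that are damaged or cannot fold are degraded by the ATP-dependent proteases LONP1 and CLPP, the latter fed by the unfolding ATPase CLPX. When unfolded protein gathers in the matrix, cells are known to raise transcripts of these genes, a response called the mitochondrial unfolded protein response.

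All 9 probes were well above background on all 4 arrays, and no spot was saturated. Over the whole array 52.7% to 59.1% of probes were detected, and the array of cells 4 h after cOS-pulse had the most. All 8 fibroblast markers (Col1a1, Vim, Thy1 and others) were detected on every array. Of 8 markers of other cell types, Ptprc, Epcam and Cdh1 were detected on no array and Cd68 and Pecam1 on all 4. Cdh5 was detected on 3 arrays, Alb on 2 and Rbfox3 at 20 h alone. The log2 of the summed level of these 8 was -0.73 in the control, 1.07 at 4 h, -0.17 at 20 h and -0.51 at 32 h. Cd68, the highest of them at 4 h, was at -1.33 in the control and 0.75 at 4 h. Whether this bears on the values below was not tested. Levels are given as the log2 of the scanner's processed signal minus the 75th percentile of the same array, so 0 marks that percentile. Differences are log2 ratios, where 1 is a 2-fold change, and the scanner software's spot error on a ratio was 0.20 for these probes. That error was 0.14 on each array for each of the 9 probes, so it is nearly a constant here. With 1 spot a probe it is no spread between repeated spots. Among probes with 10 spots the median SD of a single-spot ratio was lower, at 0.046 to 0.055 over the comparisons. Neither value holds the variation between samples.

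At 4 h after cOS-pulse, transcripts of Hspa9, Hspd1 and Lonp1 stood 1.86-, 1.72- and 1.66-fold above the control, those of Hspe1 1.29- to 1.34-fold above it, and those of Clpx, Clpp and Trap1 0.22 above, 0.073 below and 0.35 below it on the log2 scale. None reached the 2-fold threshold that the study used for its gene counts, in either direction. Over all probes 11.2% were at least 2-fold higher and 8.18% at least 2-fold lower at 4 h. At a threshold of 1.5-fold, 3 of the 9 probes rose (Hspa9, Hspd1 and Lonp1) and 0 fell, beside 24.7% of all probes higher and 16.4% lower. The 3 counts at 1.5-fold depend on how arrays are scaled to each other: 3 probes passed with the 75th percentile of detected probes, 1 (Hspa9) with no scaling and 0 with the median, quantile or spike-in scaling. With the median, spike-in and no scaling 1 probe, that of Trap1, was 1.5-fold lower.

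**Figure D1:**
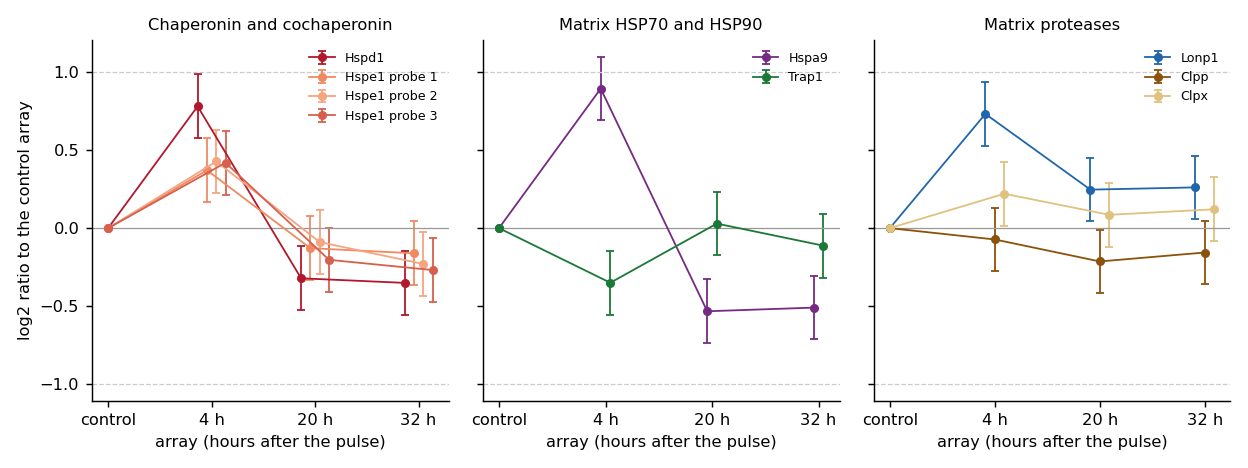
Log2 ratio to the control array (y axis) of the 9 probes on the control, 4 h, 20 h and 32 h arrays (x axis, 1 array each), with the scanner software's spot error as bars and dashed lines at 2-fold. Hspd1 (0.78), Hspa9 (0.89) and Lonp1 (0.73) peak at 4 h, after which Hspd1 and Hspa9 lie below the control and Lonp1 above it.

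The chaperonin gene Hspd1 had a level of 5.55 in the control, 6.33 at 4 h, 5.22 at 20 h and 5.20 at 32 h. The 4 h array was the highest and the 2 later arrays lay below the control by more than 1 spot error. The log2 ratio to the control was 0.78 at 4 h, -0.32 at 20 h and -0.35 at 32 h. At 4 h the ratio stayed positive under all 10 alternative settings (0.37 to 0.78), and it was higher than that of 85.9% of the 20392 probes measured. The processed signals before scaling were 51749, 73158, 52131 and 45913 in the order of the arrays, so without scaling the 20 h value turned to 0.011, while the 32 h value stayed below 0 in all 10 settings.

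Hspe1 encodes the lid of the chaperonin barrel. Its probe 1, the brightest, had levels of 4.60, 4.97, 4.47 and 4.44 in the control, then at 4 h, 20 h and 32 h. Its probe 2 had 4.29, 4.71, 4.20 and 4.06, and its probe 3 had 2.02, 2.44, 1.82 and 1.75. All 3 probes were highest at 4 h and lowest at 32 h. Their 4 h ratios of 0.37, 0.43 and 0.42 lay within 1 spot error of each other, although the spike-in scaling turned that of probe 1 to -0.032 and left 0.024 and 0.016 for the others. At 20 h the ratios were -0.13, -0.089 and -0.20 and at 32 h -0.16, -0.23 and -0.27, with a change of sign under no scaling for each at 20 h and for probe 1 at 32 h. The 20 h sign of probes 1 and 2 also turned under the spike-in scaling, and that of probe 2 under the median.

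Probes 1 and 2 of Hspe1 are nearly the same sequence and are not independent readings. They share 57 bases at an offset of 3 and differ at 1 base, T12C, with the base of probe 1 first and positions counted from 1 at the 5′ end of probe 1. The stretch around this base is shown, with the base that differs in capitals, since it separates 2 designs of one site.
Hspe1 probe 1: atgtaaataaTttccatgcct
Hspe1 probe 2: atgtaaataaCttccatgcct
Probe 3 lies upstream in the transcript, and its 60 bases span 327 bases of the genome (mm9 chr1:55147620-55147946), so it crosses a splice junction. The Hspe1 gene has 7 pseudogenes or related sequences in RefSeq, Hspd1 has 5 and Hspa9 has 1, against 0 for the other members. The part of such copies in these signals was not tested.

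The chaperonin and its lid differed in the size of the 4 h ratio. The ratio of Hspd1 exceeded that of Hspe1 probe 1 by 0.41 (spot error 0.29, range 0.34 to 0.41 over the 10 settings), that of probe 2 by 0.35 (0.24 to 0.35) and that of probe 3 by 0.36 (0.081 to 0.36). The lowest value of each came from quantile scaling, and those for probes 2 and 3 were then within the spot error. The differences to probes 2 and 3 were added after the values were seen. The difference does not depend on a constant for each array, and it has no replicate error. At 20 h and 32 h that to probe 1 was -0.19 in both, which is within the spot error.

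The pair is encoded head to head on chromosome 1. In the RefSeq annotation of GRCm38.p6, Hspe1 starts at base 55088148 on the plus strand and one Hspd1 transcript at base 55087932 on the minus strand, 216 bases apart. A second Hspd1 start lies 95 bases inside Hspe1, at base 55088243. The 300-base promoter windows of the first pair of starts (250 bases before and 50 after each) share 285 bases, and 7.50% of all 32851 windows overlap an opposite-strand window of another gene by at least 150 bases. The shared stretch holds a run of 4 alternating TTC and GAA units, the repeat that heat shock factors are known to bind, and it is shown because both genes have it between their starts. Capitals mark the run, which starts 89 bases before the Hspe1 start (plus strand, chr1:55088053-55088082).
Hspe1 and Hspd1, shared stretch: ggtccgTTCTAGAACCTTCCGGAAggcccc
Either pair of such units (GAANNTTC or TTCNNGAA, overlapping in the run, both strands searched) is held by 15.1% of all windows, 3 units in a row by 0.603% and 4 in a row by 0.0244% (8 windows). The runs of 3 and 4 were added after the values were seen. A match is a description of the sequence and no measurement of binding.

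**Figure D2:**
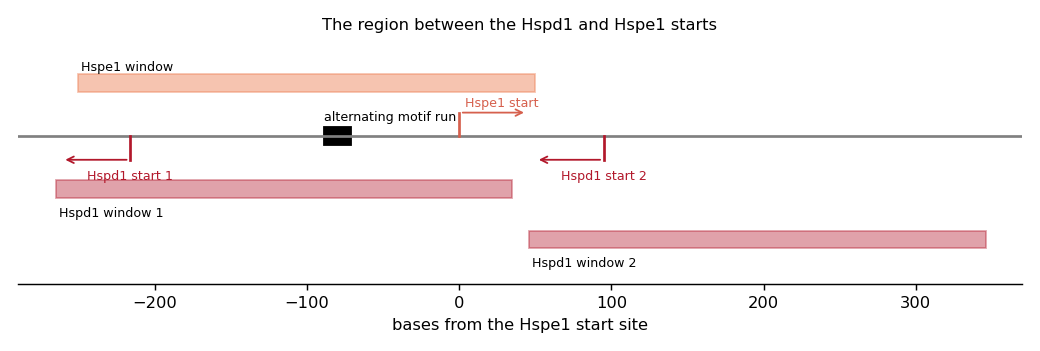
Map of the region between the Hspd1 and Hspe1 starts, in bases from the Hspe1 start (x axis), with arrows for the direction of transcription and bars for the 300-base windows. The black box, the run of 4 units, lies 89 bases before the Hspe1 start and inside the windows of Hspe1 and of the Hspd1 start 216 bases away.

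Hspa9 encodes mortalin, the HSP70 of the matrix and the motor of protein import. Its levels were 4.09 in the control, 4.98 at 4 h, 3.56 at 20 h and 3.58 at 32 h. The 4 h array was the highest, and both later arrays were the lowest. The ratios to the control were 0.89, -0.53 and -0.51, and each kept its sign in all 10 settings (0.49 to 0.89, -0.55 to -0.20 and -0.54 to -0.33). Among all measured probes the 4 h ratio stood at percentile 89.0, the 20 h ratio at 6.69 and the 32 h ratio at 6.98. The probe lies in the gene on chromosome 18, and no sequence is given for it.

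Trap1 encodes the HSP90 of the mitochondria, a chaperone of matrix proteins and of respiratory chain assembly. Its levels were 0.69, 0.34, 0.72 and 0.57 in the control, then at 4 h, 20 h and 32 h. The 4 h array was the lowest of the 4. The ratios were -0.35 at 4 h, 0.029 at 20 h and -0.11 at 32 h, and the first stayed negative in all 10 settings (-0.75 to -0.35), while the 32 h value turned positive under the spike-in scaling and no scaling. The 60 bases of the probe span 804 bases of the genome (mm9 chr16:4044692-4045495, minus strand), across a splice junction.

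The matrix HSP70 and HSP90 lay apart at 4 h. The ratio of Hspa9 exceeded that of Trap1 by 1.24 (spot error 0.29, range 0.90 to 1.24 over the settings), the widest gap among the 4 pairs compared. At 20 h and 32 h the sign of the gap was the opposite, at -0.56 and -0.40, and it kept that sign in all 10 settings. The promoter window of Trap1 holds the CRE core TGACGTCA, which CREB and ATF factors are known to bind, 47 bases before its start, as do 1.79% of all windows. It is shown in capitals on the minus strand (GRCm38.p6 chr16:4077841-4077900), since Trap1 was the member with the lowest ratio at 4 h. A link between the site and this ratio was not tested.
Trap1: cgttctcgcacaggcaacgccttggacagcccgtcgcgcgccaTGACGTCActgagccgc

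Lonp1 encodes the LON protease, which degrades oxidized and misfolded proteins of the matrix and also binds mitochondrial DNA. Its levels were 4.16 in the control, 4.90 at 4 h, 4.41 at 20 h and 4.43 at 32 h. The control was the lowest array and the 4 h array the highest. The ratios were 0.73, 0.25 and 0.26, and all 3 stayed positive in all 10 settings (0.33 to 0.73, 0.23 to 0.58 and 0.25 to 0.44). At 20 h and 32 h these ratios stood at percentiles 82.5 and 82.7 of all probes, where those of Hspd1 stood at 14.8 and 13.1.

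The promoter window of Lonp1 (minus strand, GRCm38.p6) holds an E-box, CACGTG, 36 bases before the start and the antioxidant response core TGACNNNGC 102 bases before it, with another match to the core on the other strand after the start. The E-box is the site that BMAL1:CLOCK and other bHLH factors are known to bind, and the core is that of NRF2. Both are shown because Lonp1 had the highest ratios at all 3 times among Lonp1, Clpp and Clpx. Capitals mark them in chr17:56626914-56627013.
Lonp1: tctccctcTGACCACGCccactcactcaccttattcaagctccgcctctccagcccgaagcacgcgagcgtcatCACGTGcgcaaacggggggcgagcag
The window of the second Hspd1 start also holds CACGTG, 80 bases before that start. Of all windows 7.15% hold CACGTG and 12.4% hold the core on either strand. A link between these sites and the ratios was not tested.

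Clpp and Clpx form the other matrix protease, in which CLPX unfolds proteins and threads them into the CLPP chamber. Clpp had levels of 1.86, 1.79, 1.65 and 1.71 in the control, then at 4 h, 20 h and 32 h. Clpx had 1.10, 1.32, 1.19 and 1.22. For Clpp the control array was the highest, and for Clpx it was the lowest. The ratios of Clpp were -0.073, -0.21 and -0.16 and those of Clpx 0.22, 0.085 and 0.12, so only the 20 h value of Clpp and the 4 h value of Clpx passed 1 spot error. The sign turned for Clpx at 4 h under the median, spike-in and no scaling, for Clpp at 20 h under no scaling, and for Clpp at 32 h under the spike-in and no scaling.

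The ratio of Clpp minus that of Clpx was -0.29, -0.30 and -0.28 at 4 h, 20 h and 32 h (spot error 0.29 each). These comparisons share the control array, so they are not separate readings of a gap. Between the proteases, Lonp1 exceeded Clpp by 0.80 at 4 h (range 0.53 to 0.80 over the settings), 0.46 at 20 h and 0.42 at 32 h. The Clpx window holds 1 CCAAT box, read as ATTGG on the plus strand 136 bases before the start (37.4% of all windows hold CCAAT on either strand), and it is shown as the counterpart to Lonp1 (GRCm38.p6 chr9:65294110-65294189).
Clpx: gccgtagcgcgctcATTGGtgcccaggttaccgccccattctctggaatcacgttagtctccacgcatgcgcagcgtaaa
The amino acid response core TGATGNAA (3.97% of all windows) matched in none of the windows of the 6 members that have one. For nuclear respiratory factor 1, only exact copies of 1 form of its site were searched (0.971% of all windows). No exact copy was found in these members' windows. Near matches were not counted, and the Clpx stretch shown above holds a near match that differs at 1 base. The Clpp window holds TTCCGGAA, 1 pair of heat shock units, but 33 bases after its start.

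**Figure D3:**
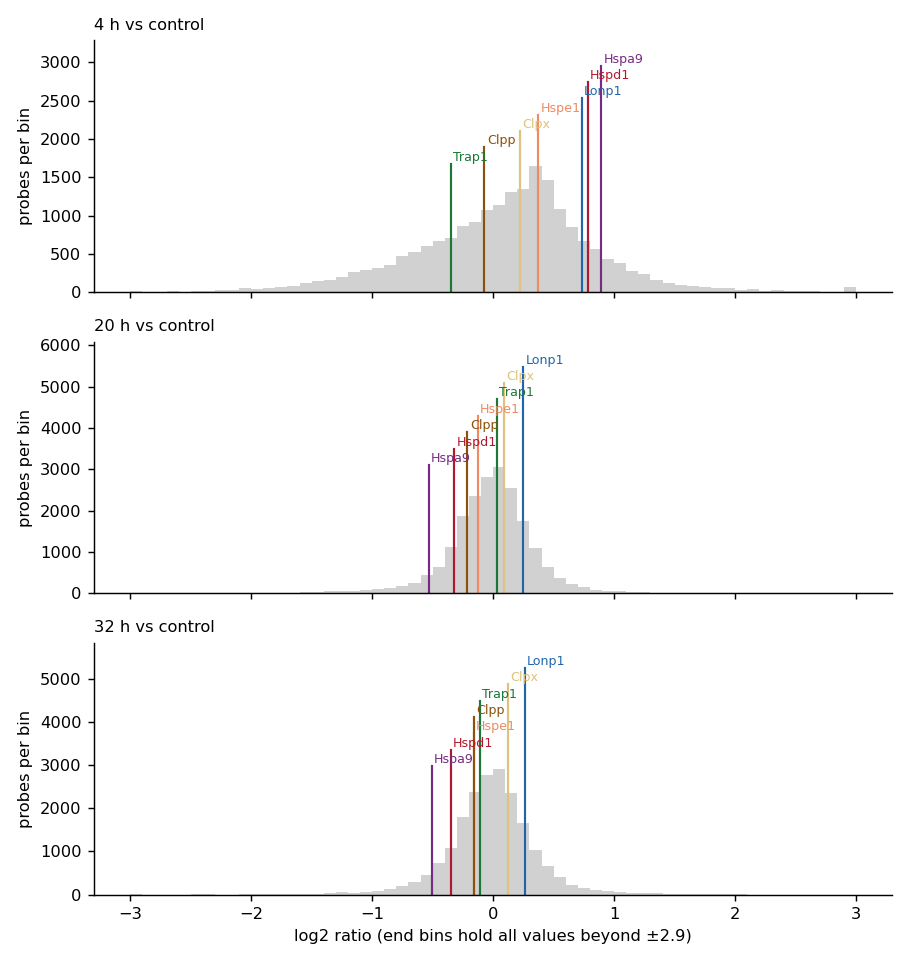
Number of probes (y axis, bins of 0.1) by log2 ratio to the control (x axis) at 4 h, 20 h and 32 h, in grey, with the ratio of each gene as a line (for Hspe1, probe 1). At 4 h Lonp1, Hspd1 and Hspa9 lie at the percentiles 84.2 to 89.0. At 20 h and 32 h Hspa9 lies at the percentiles 6.69 and 6.98, and Hspd1 at 14.8 and 13.1.

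Over the 7 genes, with the brightest probe of each, the median ratio at 4 h was 0.37, beside 0.17 over all 15806 genes measured. Of the 7 genes 5 were above 0 and 2 below, beside 60.5% of all genes above 0. The other scalings gave 3 to 5 above 0 (33.1% to 53.5% of all genes) and a median between -0.032 and 0.25. The median of all genes then lay between -0.23 and 0.049, and that of the 7 genes exceeded it by 0.20 to 0.23. The scaling itself moved the median of all probes at 4 h by -0.40 to -0.12. Relative to that median the ratios were 0.72 for Hspa9, 0.61 for Hspd1, 0.56 for Lonp1, 0.20 to 0.26 for the Hspe1 probes, 0.049 for Clpx, -0.24 for Clpp and -0.52 for Trap1. In bulk RNA a shift in the number of cells of a kind and a shift in RNA per cell cannot be told apart.

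**Figure D4:**
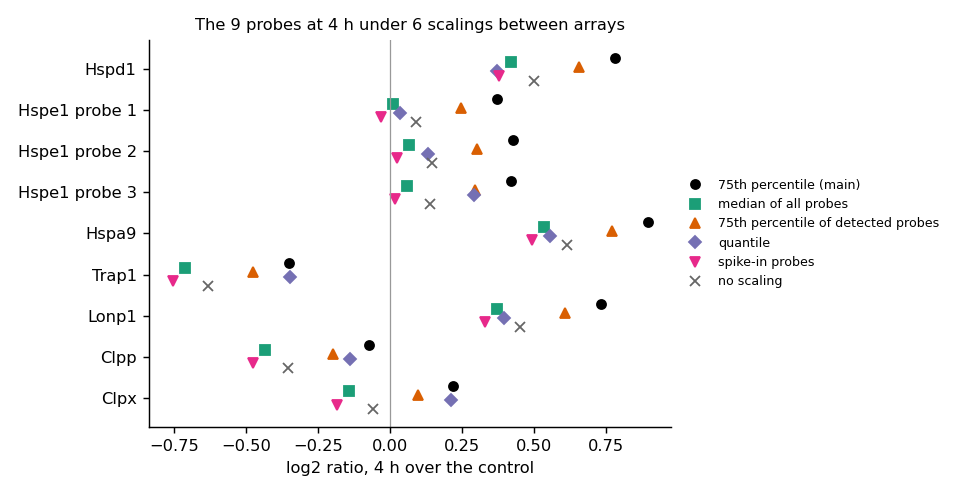
Log2 ratio at 4 h over the control (x axis) of the 9 probes (y axis) under 6 ways of scaling the 4 arrays to each other. Hspd1, Hspa9 and Lonp1 lie above 0 and Trap1 and Clpp below 0 in all 6, whereas Clpx and Hspe1 probe 1 change sign.

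At 20 h no probe of the 9 was 2-fold or 1.5-fold from the control, where 1.37% of all probes were at least 2-fold higher and 3.35% lower, and 4.51% and 7.69% at least 1.5-fold. At 32 h none was either, beside 2.07% of all probes 2-fold higher and 2.59% lower, and 5.82% and 7.15% at 1.5-fold. The median of the 7 genes was -0.13 at 20 h and -0.16 at 32 h, beside -0.0010 and -0.00064 over all genes. Both medians turned positive under the spike-in scaling (0.072 and 0.0010) and no scaling (0.20 and 0.022). The medians of all genes were then 0.20 and 0.16 (spike-in) and 0.33 and 0.18 (no scaling). The comparisons at 20 h and 32 h share the control array with that at 4 h.

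From 4 h to 20 h, a comparison that does not use the control, Hspa9 fell by 1.43 on the log2 scale (2.69-fold) and Hspd1 by 1.10 (2.15-fold). These were the only 2 of the 9 probes past 2-fold, all lower, where 14.9% of all probes were lower and 9.07% higher. Hspa9 passed 2-fold also with the 75th percentile of detected probes and with quantile scaling, and neither gene passed with the median (-0.96 and -0.64), spike-in or no scaling. The ratios of the Hspe1 probes were -0.50, -0.52 and -0.62 and that of Lonp1 was -0.49, while Trap1 was higher by 0.38, a sign it kept in all 10 settings. Under the spike-in and no scaling the ratios of Lonp1 and of Hspe1 probes 1 and 2 were above 0. Clpp and Clpx were at -0.14 and -0.13, and both turned positive under the median, spike-in and no scaling.

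The times of 20 h and 32 h were sampled to detect circadian changes. Between them no member was past 2-fold or 1.5-fold in either direction, where 0.902% of all probes were at least 2-fold higher at 20 h and 1.93% lower (1.87% and 3.8% at 1.5-fold). All 9 ratios of 20 h over 32 h lay between -0.057 and 0.14, which is within the spot error of 0.20. The largest, 0.14 for Hspe1 probe 2 and Trap1, exceeded the median SD of 0.047 among probes with 10 spots. Hspd1 was at 0.029, Hspa9 at -0.023 and Lonp1 at -0.014, and the signs of Hspa9 and Lonp1 changed under the median, spike-in and no scaling, and that of Hspa9 also under normexp background correction. The 14 chaperones of the endoplasmic reticulum were all lower at 20 h than at 32 h, with none past 2-fold. Their ratios ran from -0.54 to -0.16, so some of them also lay within the spot error of 0.20. Their median was -0.27, beside 0.0049 over all genes, and whether this is circadian was not tested.

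By their brightest probes, most partners of the matrix HSP70 lay below the control at 4 h, where Hspa9 lay above it. Of 9 partner and import motor genes, by the brightest probe of each, none passed 2-fold at 4 h, 3 were above 0 and 6 below, and the median was -0.58. Counted the same way over all 15806 genes, 60.5% were above 0, 8.25% were 2-fold higher and 8.14% 2-fold lower at 4 h. The other scalings put 33.1% to 53.5% of all genes above 0, 3.41% to 6.18% 2-fold higher and 10.1% to 16.4% 2-fold lower. Among the 3 above 0 were Grpel2 (0.85, with 0.51 at its other probe) and Grpel1 (0.53, with at least 2.62 at its other probe, which was not well above background in the control), the nucleotide exchange factors of this HSP70. The lowest was Dnajc19, a J-domain protein of the inner membrane, at -0.96, but its other probe was at 0.076, and the probes of Dnlz, a zinc finger partner, disagreed as well (-0.68 and 0.71). Under the other scalings 1 to 4 of the 9 genes were 2-fold lower and the median lay between -0.99 and -0.67.

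Of 17 other mitochondrial proteases and prohibitins, Oma1 alone passed 2-fold at 4 h with the 75th percentile scaling, and it fell by 1.39 (spot error 0.28). The Oma1 probe was weak, at -2.62 in the control and -4.01 at 4 h, where the lowest detected level was -4.94. Under the other scalings 1 to 4 genes were 2-fold lower: Oma1 in all 5, Mipep with quantile scaling, and Mipep, Stoml2 and Immp1l with the median, spike-in and no scaling. Of all genes 8.14% were 2-fold lower with the 75th percentile scaling and 10.1% to 16.4% with the others. OMA1 is the stress-activated protease of the inner membrane that cleaves OPA1. The median of the list was 0.037, with 9 genes above 0 and 8 below, and it was below 0 in the 5 other scalings (-0.37 to -0.085). Xpnpep3, a mitochondrial aminopeptidase, was the highest at 0.84.

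The import pores and carriers had a median of 0.47 at 4 h, and 15 of 18 genes were above 0, beside 60.5% of all genes. Past 2-fold were Timm8a1 (1.15) and Timm9 (1.07), small chaperones of the space between the membranes, and Tomm20 (1.05) and Tomm5 (1.01) of the outer pore. The other probes of these genes gave 1.09, 0.90, 1.22 and 1.06, and 0.98. Timm50, a receptor of the inner pore, was the lowest at -0.96, and its other probe was at -0.93. Under the other scalings 0 or 1 of the 18 genes were 2-fold higher and 0 to 2 were 2-fold lower (Timm50, and Timm17b with the median and spike-in scaling), with medians of 0.065 to 0.34. Of all genes 8.25% were 2-fold higher with the 75th percentile scaling. With the others 3.41% to 6.18% were 2-fold higher and 10.1% to 16.4% 2-fold lower.

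Of 10 regulators tied to the mitochondrial unfolded protein response, Atf4 (1.68) and Atf5 (1.65), the transcription factors of the integrated and the mitochondrial stress response, were past 2-fold at 4 h in every scaling. Foxo3 was at 1.11 (spot error 0.30, level -3.95 in the control) with 0.51 at its other probe, and it was under 2-fold in the 5 other scalings. The median of the 10 was 0.53 with 9 above 0, and the other scalings gave 0.13 to 0.45 with 6 to 8 above 0. Over all genes the median was 0.17, with 60.5% above 0 and 8.25% 2-fold higher. The other scalings gave all-gene medians of -0.23 to 0.049, with 33.1% to 53.5% above 0 and 3.41% to 6.18% 2-fold higher. The lowest was Ssbp1, the mitochondrial single-stranded DNA binding protein, at -0.14. At 20 h Atf4 was at -0.072 and Atf5 at 0.10.

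Most chaperones of other compartments lay above the control at 4 h in every scaling. All 16 measured cytosolic chaperones were above 0 (14 to 16 under other scalings, beside 60.5% of all genes and 33.1% to 53.5%), with a median of 0.66 and 2 genes past 2-fold, Hspa4 (1.24, against 0.24 and 0.39 at its other probes) and Hsp90aa1 (1.22). Both stayed past 2-fold with the 75th percentile of detected probes, and 0 of the 16 passed with the 4 other scalings, whose medians went down to 0.26. Hsph1, an exchange factor of HSP70, was the lowest at 0.22. All 14 chaperones of the endoplasmic reticulum were above 0 (12 to 14 under other scalings), with a median of 0.57. Past 2-fold were Dnajb9 (2.12), Hspa5 (1.37) and Hyou1 (1.15), and Dnajc3 at 0.17 was the lowest. Of all genes 8.25% were 2-fold higher, and 3.41% to 6.18% with the other scalings. The Hyou1 probe was weak, at -4.07 in the control, where the lowest detected level was -4.76, and its spot error was 0.33. Hyou1 was under 2-fold with the median and no scaling, and Hyou1 and Hspa5 with quantile and spike-in scaling, and the list median went down to 0.17. The medians of both lists exceeded the 0.37 of the 7 mitochondrial genes, and Hspa9 (0.89), Hspd1 (0.78) and Lonp1 (0.73) were above both medians.

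The median of 18 genes that track mitochondrial mass was 0.16 at 4 h, beside 0.17 for all genes, with 11 above 0 (60.5% of all genes) and none past 2-fold. Under other scalings the median lay between -0.24 and 0.036, and with quantile scaling it was 0.17 lower than that of all genes. They ran from Uqcrc1 (-0.44), of respiratory complex III, to Cox4i1 (0.53), of cytochrome oxidase. With the 75th percentile scaling, Hspa9, Hspd1 and Lonp1 were each above all 18.

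**Figure D5:**
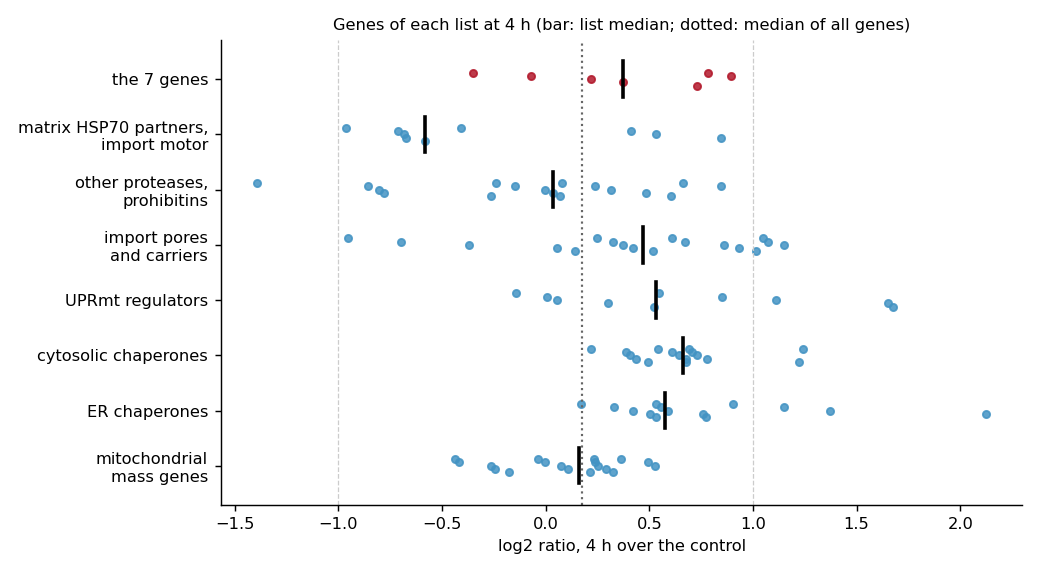
Log2 ratio at 4 h over the control (x axis) of each gene, by list (y axis, 1 point a gene, brightest probe), with the list median as a bar, the median of all genes (0.17) as a dotted line and 2-fold as dashed lines. The HSP70 partners have a median of -0.58 and the cytosolic chaperones one of 0.66, and the 7 genes run from -0.35 to 0.89.

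Profiles over the 3 ratios to the control were compared by Euclidean distance among 12417 genes detected on all 4 arrays. The nearest to Hspd1 were Gm5161 (0.037), Rbm34 (0.038) and 1700017B05Rik (0.054), and 121 genes lay within 0.2. Among the members Hspa9 was nearest to Hspd1, at rank 309 (0.29), and Hspe1 followed at rank 1418 (0.49). The nearest to Lonp1 were Gm5608 (0.030), Wdr37 (0.031) and Irs2 (0.035), with 247 genes within 0.2, and its nearest member was Clpx at rank 2590 (0.55). Hspd1 and Lonp1, alike at 4 h, were 0.84 apart over the 3 times.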

How the data were processed

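Total RNA was labelled with Cy3 and hybridised to 4 one-colour Agilent mouse expression arrays on 1 slide, and the authors deposited the scanner output of Agilent Feature Extraction 10.7.3.1 (per the labels) as spot intensity values. The processed signal is background-corrected intensity, not scaled between arrays. The deposited table of the series is that intensity divided by 1 constant per array (largest deviation 0.00012%). Control spots and outlier flags (125 to 161 spots per array) were left out, spots of 1 probe were averaged, and log2 values were set against the 75th percentile of each array, with Python 3.11.15, numpy 2.4.6 and pandas 2.3.3. Detection required that 50% or more of a probe's spots be flagged well above background. Ratios were used where both arrays detected the probe, and a lower bound where 1 did. Each member probe has 1 spot of 60 bases. Over the 228 probes measured at 4 h of 399 with 10 spots, the median SD of a single-spot log2 ratio was 0.055. Precision is limited by having 1 array a group. The 10 alternatives were 5 scalings (median, 75th percentile of probes detected on all 4 arrays, quantile, 8 spike-in probes, none), normexp in limma 3.58.1 (R 4.3.3, offset 50), the deposited table, 2 detection filters and outlier spots kept. The calling script was tested on simulated data. Named genes were every member probe, of each list those past 2-fold and the highest and lowest at 4 h, and the 3 nearest profiles to Hspd1 and Lonp1. Grpel1 and Dnlz were added with their values seen. The members and lists were chosen with earlier results of these data known. Promoter windows are from RefSeq (GRCm38.p6; 6 of the 7 members have one), and probe positions are those of the array files (mm9).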

Additional observations from a re-analysis of the deposited data

How the results depend on the processing

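No paired analysis was possible because each group has 1 array, and for the same reason no replicate could be left out. The member median at 4 h was 0.0096 with the median scaling, -0.032 with the spike-in scaling (other sign) and 0.090 with no scaling, and at 20 h it was 0.20 with no scaling. At a threshold of 1.5-fold, 3 probes were higher at 4 h. From 4 h to 20 h the count of probes 2-fold lower was 1 with the 75th percentile of detected probes or quantile scaling, and 0 with the median, spike-in or no scaling. The median was then -0.019 (median scaling), -0.14 (quantile), 0.12 (spike-in, other sign) and 0.13 (no scaling, other sign). These are shifts of the scale of a whole array, and which scaling is right was not tested. The alternatives for the 20 h to 4 h counts were chosen after seeing the data. The other 151 values of counts and medians kept their direction or moved by less than the spot error, or, for counts, by no more than 1.5 times. Of single-probe values 377 moved by less than the spot error and 73 by more, none of them a reversal of a value past 2-fold. Signals of the 9 probes lay well above background, and no replicate error exists for them.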
